A study of Mus musculus with 4 samples.

Results

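Antigen presentation genes were measured by RNA-seq in sympathetic ganglia (SG) of mice, in ganglia from thoracic levels T1–T4. They were a list of 10 named genes of the MHC class I and class II pathways, *B2m*, *H2-K1*, *H2-D1*, *Tap1*, *Tap2*, *Tapbp*, *Psmb8*, *Psmb9*, *Cd74* and *H2-Aa*, matched by symbol to the Entrez identifiers of the expression tables. All 10 were listed in all 4 libraries, out of 17667 genes listed in at least 1 library and 15275 listed in all 4. The libraries carried the labels WT_1, TRKC+/-, WT_2 and AdNTF3-Tg. TRKC+/- mice carry 1 disrupted copy of *Ntrk3*, which encodes TRKC, the receptor of neurotrophin 3 (NT-3), in all their cells. AdNTF3-Tg mice carry an NT-3 transgene driven by the adiponectin promoter, which is active in adipocytes, so the ganglia themselves are not its intended site. WT mice were littermates without these alleles. Each library was a pool from 6 mice on a C57BL/6 background, aged 12 weeks and kept for 1 day at 5 °C, and these conditions were common to the WT libraries as well. Because each group was 1 pooled library, the spread between animals was not measured and no test between groups was possible. The labels do not say which WT library belongs to which mutant, so each mutant library was set against both of them, and WT_2 was set against WT_1 as the only measure of how far 2 libraries of the same labelled genotype lay apart.

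MHC class I molecules show peptides from inside the cell to cytotoxic T cells and are made by nearly all nucleated cells, although neurons make little of them at rest. *B2m* encodes their light chain, beta-2-microglobulin, and *H2-K1* and *H2-D1* encode classical heavy chains. *Psmb8* and *Psmb9* encode interferon-inducible catalytic subunits that replace their constitutive counterparts Psmb5 and Psmb6 in the immunoproteasome. *Tap1* and *Tap2* encode the chains of the transporter that carries peptides into the endoplasmic reticulum, and *Tapbp* encodes tapasin, which holds the transporter to the empty class I molecule. MHC class II molecules show peptides from outside the cell to helper T cells and are made mainly by professional antigen-presenting cells such as dendritic cells, B cells and macrophages. *H2-Aa* encodes a class II alpha chain, and *Cd74* encodes the invariant chain that accompanies class II molecules until they are loaded.

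The start regions of the genes that encode the presenting molecules are shown because they carry the elements by which class I and class II genes are known to be switched on together. They come from RefSeq on GRCm38.p6, a different build from that of the gene positions given later, and each runs 5′ to 3′ on the strand of its gene and ends at the base before the listed start site. Capitals mark matches on either strand to 4 motifs: the interferon regulatory factor core AANNGAAA, the kappaB element (GGGNN directly followed by TTNCC), the X2 core TGACG and the Y box ATTGG. In *H2-Aa* the X2 core occurs on both strands and the matches overlap. The regions are chr2:122147437-122147686 (plus strand) for *B2m*, chr17:34000348-34000597 (minus strand) for *H2-K1*, chr17:35262844-35263093 (plus strand) for *H2-D1* and chr17:34287824-34288073 (minus strand) for *H2-Aa*. *H2-K1* has another listed start, and only the region of the upstream one is shown.
B2m: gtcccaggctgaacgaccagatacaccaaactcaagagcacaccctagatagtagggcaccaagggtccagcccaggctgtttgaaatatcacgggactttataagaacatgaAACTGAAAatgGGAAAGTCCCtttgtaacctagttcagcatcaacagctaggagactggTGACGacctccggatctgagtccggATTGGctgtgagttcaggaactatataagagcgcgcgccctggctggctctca
H2-K1: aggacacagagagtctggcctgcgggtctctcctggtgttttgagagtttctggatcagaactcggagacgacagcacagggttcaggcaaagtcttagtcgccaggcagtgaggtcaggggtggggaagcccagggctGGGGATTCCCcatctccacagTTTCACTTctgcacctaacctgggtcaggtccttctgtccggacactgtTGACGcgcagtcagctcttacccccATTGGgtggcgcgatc
H2-D1: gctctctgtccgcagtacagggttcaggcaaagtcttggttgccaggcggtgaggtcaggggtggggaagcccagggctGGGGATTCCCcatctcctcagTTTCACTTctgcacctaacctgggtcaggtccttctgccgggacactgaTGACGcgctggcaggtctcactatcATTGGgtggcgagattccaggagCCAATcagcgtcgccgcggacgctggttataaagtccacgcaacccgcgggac
H2-Aa: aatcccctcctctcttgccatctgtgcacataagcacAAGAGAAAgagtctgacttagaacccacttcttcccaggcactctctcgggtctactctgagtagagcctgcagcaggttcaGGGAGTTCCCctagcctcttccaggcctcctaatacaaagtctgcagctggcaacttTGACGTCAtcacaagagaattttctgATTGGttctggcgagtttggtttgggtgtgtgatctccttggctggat

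Each of these 4 genes had an X2 core followed by a Y box in the same order, with 20 bases between them in *B2m*, *H2-K1* and *H2-D1* and 21 bases in *H2-Aa*. The pair ended 49 bases before the start in *B2m*, 12 bases before it in *H2-K1*, 72 bases before it in *H2-D1* and 44 bases before it in *H2-Aa*. Windows of 300 bases, with 250 before and 50 after the start, were searched for 8 of the 10 genes, those other than *Tap2* and *Cd74*. An X2 core followed after 15 to 25 bases by a Y box was found in 4 of these 8 windows and in 0.435% of 32851 windows of all RefSeq starts. The kappaB element was found in 4 of 8 windows against 4.79% of all windows. The interferon regulatory factor core was found in 4 of 8 against 23.9%, the X2 core in 6 of 8 against 20.8%, and the Y box in 7 of 8 against 37.4%. These windows were not independent. The X2 core and Y box matches of *Psmb9* and *Tap1* are the same bases, and the aligned start regions of *H2-K1* and *H2-D1* were 90.4% identical. The motifs were also taken as known elements of such genes, so the contrast with all windows is a description and no test. A match describes the letters and does not show that a factor binds there.

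*Psmb9* and *Tap1* share a start region, which is shown because both genes are read outwards from it. The 225 bases between their listed starts (chr17:34187331-34187555, GRCm38.p6) are given on the strand of *Tap1*, so that *Psmb9* is read leftwards from the left end. Capitals again mark the X2 core and the Y box, which here lie far apart.
Psmb9-Tap1: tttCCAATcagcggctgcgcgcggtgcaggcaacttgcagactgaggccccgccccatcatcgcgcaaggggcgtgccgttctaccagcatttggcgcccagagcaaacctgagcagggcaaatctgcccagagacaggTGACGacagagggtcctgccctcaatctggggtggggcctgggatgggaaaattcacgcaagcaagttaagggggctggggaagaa

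The positions of the genes link many of them. On the build NCBIM37 (mm9), 8 of the 10 genes lay on chromosome 17, in the MHC region and its flank. *B2m* (Entrez 12010) lay on chromosome 2 at chr2:121973422-121978819, and *Cd74* (Entrez 16149) on chromosome 18 at chr18:60963502-60972300. The genes for peptide supply formed a cluster, with *Psmb9* (Entrez 16912) at chr17:34318932-34324697, *Tap1* (Entrez 21354) at chr17:34324498-34334170, *Psmb8* (Entrez 16913) at chr17:34334666-34338399 and *Tap2* (Entrez 21355) at chr17:34340472-34353266. *H2-Aa* (Entrez 14960) lay at chr17:34406276-34424772. *Tapbp* (Entrez 21356) lay at chr17:34052844-34066235, *H2-K1* (Entrez 14972) at chr17:34132962-34137278 and *H2-D1* (Entrez 14964) at chr17:35399675-35404444. In the annotation of this build (GENCODE), *Psmb9* and *Tap1* are read from opposite strands and overlap at their starts, unlike the RefSeq starts above. Whether the counting used strand was not given in the sources used here, so reads in that overlap could not be assigned with certainty.

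Library sizes were alike, at 8665955 to 8894985 reads on genes, so 3 reads, the floor used here, corresponded to 0.337 to 0.346 CPM. Sympathetic neuron markers were high in every library, and 0 of 10 differed by the cutoff described below in any comparison, beside 4.63% to 8.24% of all genes in each direction. *Ntrk3* was at 2.45 FPKM in WT_1, 2.72 FPKM in the library labelled TRKC+/-, 2.52 FPKM in WT_2 and 2.32 FPKM in AdNTF3-Tg. It was highest where loss of a copy would lower it, on 76 to 91 reads a library, so this library is named by its label throughout. In ganglia measured separately, the study reported reduced expression of this gene in TRKC+/- mice. Whether the disrupted copy still gives counted reads was not tested. The libraries also differed in the summed level of 5 skeletal muscle genes, from 2.80 FPKM in WT_2 to 63.9 FPKM in WT_1, and of 3 red blood cell genes, from 49.3 FPKM in WT_2 to 138 FPKM in WT_1. In AdNTF3-Tg both sums lay between those of the WT libraries, at 23.2 and 63.9 FPKM. The summed level of 5 adipocyte genes was 82.9 FPKM in WT_1, 33.7 FPKM in the library labelled TRKC+/-, 73.7 FPKM in WT_2 and 60.1 FPKM in AdNTF3-Tg, and so was lower in both mutant libraries than in either WT library. Their part in the differences below was not tested.

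The class II genes *Cd74* and *H2-Aa* were lower in AdNTF3-Tg than in both WT libraries. *Cd74* was 1.60-fold higher in WT_1 and 1.42-fold higher in WT_2 than in AdNTF3-Tg, and *H2-Aa* was 1.64-fold and 1.56-fold higher. The immunoproteasome genes of the class I pathway had differences of like size against WT_2: *Psmb8* was 1.33-fold higher in WT_1 and 1.65-fold higher in WT_2 than in AdNTF3-Tg, and *Psmb9* 1.31-fold and 1.77-fold higher, the latter on few reads. *B2m*, *H2-K1* and *H2-D1* were between 1.20-fold and 1.27-fold higher in WT_2 than in AdNTF3-Tg, but lay at 0.996-fold to 1.10-fold of it in WT_1. In the library labelled TRKC+/-, none of the 10 genes passed the cutoff against either WT library.

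**Figure D1:**
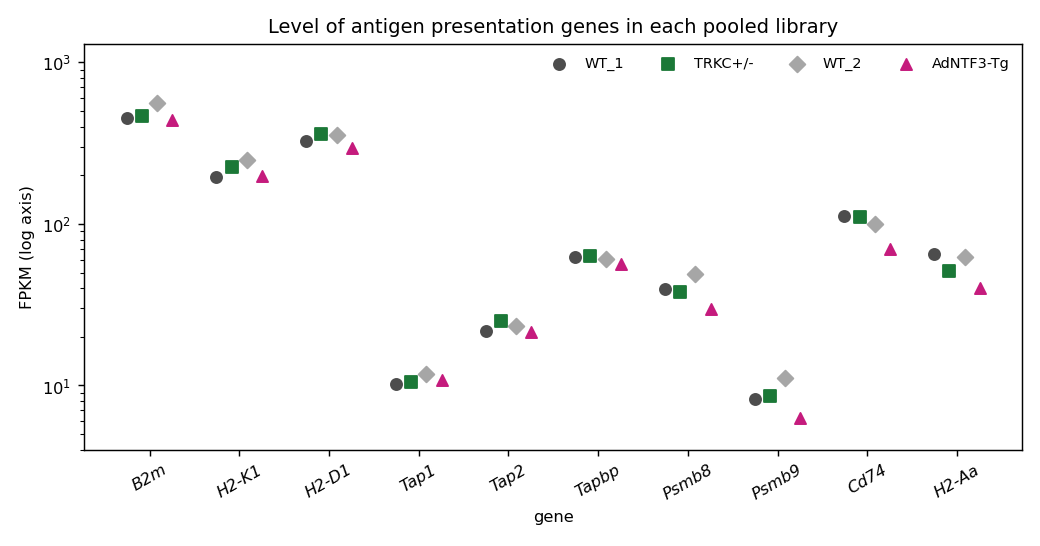
FPKM (log axis) of the 10 antigen presentation genes, with 1 point for each of the 4 pooled libraries and no error bars because no group had replicates. AdNTF3-Tg is the lowest point for 8 of the 10 genes, and the gap is widest for *Psmb8*, *Psmb9*, *Cd74* and *H2-Aa*.

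Levels are given in FPKM, a read count corrected for gene length and library size, which allows genes of different length to be compared. *B2m* was the most abundant, with a mean of 482 FPKM over the 4 libraries and rank 75 among the 15275 genes. *H2-D1* ranked 179, *H2-K1* ranked 329 and *Cd74* ranked 824, so these genes belonged to the abundant transcripts of the ganglia. *Tapbp* ranked 1390, *H2-Aa* 1565, *Psmb8* 2219 and *Tap2* 3668. *Tap1* ranked 6520 and *Psmb9* was lowest at 7348. Differences are given as log2((FPKM + 0.1)/(FPKM + 0.1)), with a cutoff of 0.5 in either direction, which is the one the study used. The exact Clopper-Pearson 95% interval that follows a difference comes from the read counts and covers counting error only: it compares 2 libraries, not 2 genotypes. The FPKM and the read differences of the 10 genes lay at most 0.04 apart on the log2 scale.

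*B2m* was at 456 FPKM in WT_1, 465 FPKM in the library labelled TRKC+/-, 564 FPKM in WT_2 and 443 FPKM in AdNTF3-Tg. WT_2 stood above the other libraries, which lay close together. AdNTF3-Tg was below WT_2 by a log2 difference of -0.35 (interval -0.42 to -0.28) and differed from WT_1 by -0.04 (-0.15 to -0.004), an interval that just left out 0. The library labelled TRKC+/- differed from WT_2 by -0.28 (-0.33 to -0.20) and from WT_1 by 0.03 (-0.06 to 0.08). WT_2 and WT_1 themselves differed by 0.31 (0.21 to 0.34), so the contrast of *B2m* in AdNTF3-Tg was about as large as that between the WT libraries.

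*H2-K1* was at 196 FPKM in WT_1, 224 FPKM in the library labelled TRKC+/-, 250 FPKM in WT_2 and 197 FPKM in AdNTF3-Tg. WT_1 and AdNTF3-Tg were level, with a difference of 0.01 (-0.09 to 0.06), and both lay below the other libraries. Against WT_2, AdNTF3-Tg differed by -0.34 (-0.42 to -0.27), and WT_2 differed from WT_1 by 0.35 (0.26 to 0.41). The library labelled TRKC+/- lay between the WT libraries, at 0.19 (0.11 to 0.25) against WT_1 and -0.16 (-0.22 to -0.09) against WT_2.

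*H2-D1* was at 326 FPKM in WT_1, 360 FPKM in the library labelled TRKC+/-, 355 FPKM in WT_2 and 296 FPKM in AdNTF3-Tg. AdNTF3-Tg was the lowest library, at -0.14 (-0.21 to -0.10) against WT_1 and -0.26 (-0.32 to -0.21) against WT_2, both short of the cutoff. The library labelled TRKC+/- was at 0.14 (0.08 to 0.19) against WT_1 and did not differ from WT_2 beyond counting error, at 0.02 (-0.03 to 0.08). Within a library *H2-D1* was between 1.42-fold (WT_2) and 1.66-fold (WT_1) as abundant as *H2-K1*. Expected counts carry fractions where reads are divided between genes: those of *H2-D1* did so in all 4 libraries and that of *H2-K1* in the library labelled TRKC+/-. In the annotation of NCBIM37, 12.8% of the 50-base windows of *H2-D1* and 7.29% of those of *H2-K1* also occurred in a transcript of another gene, so their values are less certain than that of *B2m*, which had none.

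The peptide transporter and tapasin varied least. *Tap1* was at 10.1 FPKM in WT_1, 10.5 FPKM in the library labelled TRKC+/-, 11.8 FPKM in WT_2 and 10.7 FPKM in AdNTF3-Tg, with 255 to 300 reads. All 5 intervals of *Tap1* included 0, and the widest difference was 0.21 (-0.04 to 0.45) between the WT libraries. *Tap2* was at 21.7 FPKM in WT_1, 25.1 FPKM in the library labelled TRKC+/-, 23.4 FPKM in WT_2 and 21.6 FPKM in AdNTF3-Tg. The only interval of *Tap2* that left out 0 was that of the library labelled TRKC+/- against WT_1, at 0.21 (0.03 to 0.39). *Tapbp* was at 62.4 FPKM in WT_1, 63.7 FPKM in the library labelled TRKC+/-, 60.3 FPKM in WT_2 and 56.4 FPKM in AdNTF3-Tg, a range of 1.13-fold, the narrowest of the 10 genes. AdNTF3-Tg differed for *Tapbp* by -0.15 (-0.27 to -0.05) against WT_1 and by -0.10 (-0.21 to 0.01) against WT_2.

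*Psmb9* and *Psmb8* had the widest ranges of the 10 genes, at 1.77-fold and 1.65-fold from the lowest to the highest library, with *H2-Aa* next at 1.64-fold. *Psmb8* was at 39.6 FPKM in WT_1, 37.8 FPKM in the library labelled TRKC+/-, 49.0 FPKM in WT_2 and 29.7 FPKM in AdNTF3-Tg, with 403, 391, 501 and 302 reads. AdNTF3-Tg was lowest and WT_2 highest. The difference of AdNTF3-Tg was -0.72 (-0.93 to -0.51) against WT_2, past the cutoff, and -0.41 (-0.66 to -0.22) against WT_1, short of it. The WT libraries differed by 0.31 (0.09 to 0.48), and the library labelled TRKC+/- was at -0.37 (-0.56 to -0.17) against WT_2 and -0.07 (-0.29 to 0.12) against WT_1.

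*Psmb9* was at 8.24 FPKM in WT_1, 8.59 FPKM in the library labelled TRKC+/-, 11.2 FPKM in WT_2 and 6.31 FPKM in AdNTF3-Tg. The order of the libraries was near that of *Psmb8*, on 41 to 73 reads a library. AdNTF3-Tg differed from WT_2 by -0.82 (-1.41 to -0.25), and from WT_1 by -0.38 (-1.04 to 0.19), which counting error alone could give. *Psmb8* was between 4.38-fold (3.42 to 5.68, WT_2) and 4.80-fold (3.61 to 6.51, WT_1) as abundant as *Psmb9* in the 4 libraries, and these intervals are too wide to show whether the proportion differed.

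Set against the constitutive subunit that it replaces, *Psmb8* stood at 17.3% of *Psmb5* in WT_1 (15.5% to 19.3%), 17.7% in the library labelled TRKC+/- (15.8% to 19.8%), 22.7% in WT_2 (20.5% to 25.2%) and 14.4% in AdNTF3-Tg (12.7% to 16.4%). The interval of WT_2 lay above those of the other libraries, and that of AdNTF3-Tg overlapped those of WT_1 and of the library labelled TRKC+/-. *Psmb9* stood at 3.89% of *Psmb6* in WT_1, 4.34% in the library labelled TRKC+/-, 5.53% in WT_2 and 3.52% in AdNTF3-Tg, with intervals that all overlapped. The third inducible subunit, *Psmb10*, was at 15.4%, 18.5%, 14.6% and 15.8% of its counterpart *Psmb7* in the same order, highest in the library labelled TRKC+/-. Of *Psmb10* and the proteasome activator genes *Psme1* and *Psme2*, 0 of 3 passed the cutoff in any comparison. Of all genes 4.63% to 8.24% passed it in each direction, so this count is near the share.

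**Figure D2:**
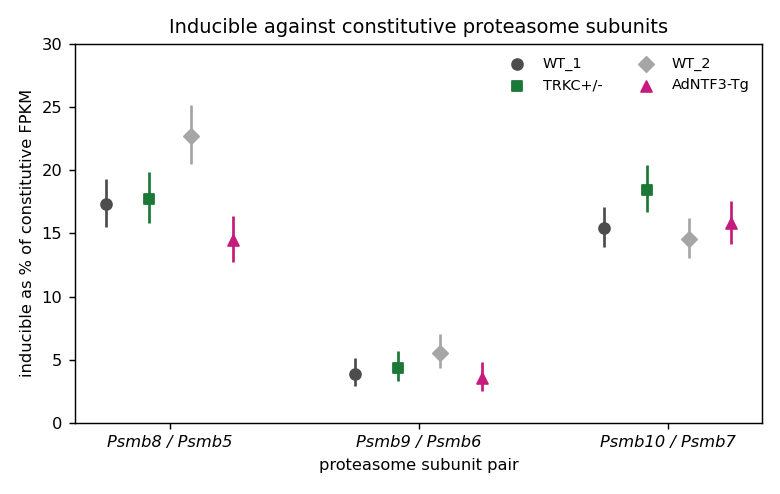
FPKM of each inducible proteasome subunit as a percentage of the constitutive subunit it replaces, with 1 point for each library and bars for the exact 95% interval of counting error. *Psmb8* relative to *Psmb5* runs from 14.4% in AdNTF3-Tg to 22.7% in WT_2, whereas *Psmb10* relative to *Psmb7* is highest in the library labelled TRKC+/- at 18.5%.

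*Cd74* was at 112 FPKM in WT_1, 111 FPKM in the library labelled TRKC+/-, 99.96 FPKM in WT_2 and 70.4 FPKM in AdNTF3-Tg, with 1200, 1199, 1077 and 745 reads. AdNTF3-Tg stood apart below the other libraries. Its difference was -0.67 (-0.84 to -0.58) against WT_1 and -0.51 (-0.66 to -0.39) against WT_2, past the cutoff in both, although only narrowly in the latter. The WT libraries differed in the opposite order to that of *B2m*, *H2-K1* and *H2-D1*, with WT_2 at -0.17 (-0.31 to -0.07) against WT_1. The library labelled TRKC+/- was at -0.02 (-0.16 to 0.08) against WT_1 and 0.15 (0.03 to 0.27) against WT_2.

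*H2-Aa* was at 65.3 FPKM in WT_1, 51.1 FPKM in the library labelled TRKC+/-, 62.4 FPKM in WT_2 and 39.9 FPKM in AdNTF3-Tg, with 586, 466, 561 and 357 reads. The WT libraries were close, at -0.07 (-0.26 to 0.08), and AdNTF3-Tg was lowest. The difference of AdNTF3-Tg was -0.71 (-0.93 to -0.55) against WT_1 and -0.64 (-0.84 to -0.45) against WT_2. The library labelled TRKC+/- was also below both WT libraries, at -0.35 (-0.55 to -0.19) and -0.29 (-0.46 to -0.10), short of the cutoff. *H2-Aa* was the only one of the 10 genes with intervals below 0 for that library against both WT libraries.

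The proportion of *H2-Aa* to *Cd74* was 0.582 in WT_1, 0.624 in WT_2 and 0.567 in AdNTF3-Tg, with overlapping intervals, and 0.462 (0.414 to 0.515) in the library labelled TRKC+/-, an interval that met that of AdNTF3-Tg but not those of the WT libraries. The proportion of *Cd74* to *B2m* was 0.246 in WT_1, 0.238 in the library labelled TRKC+/-, 0.177 (0.165 to 0.190) in WT_2 and 0.159 (0.147 to 0.172) in AdNTF3-Tg. By that measure AdNTF3-Tg was set apart from WT_1 but overlapped WT_2, where *B2m* was high.

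**Figure D3:**
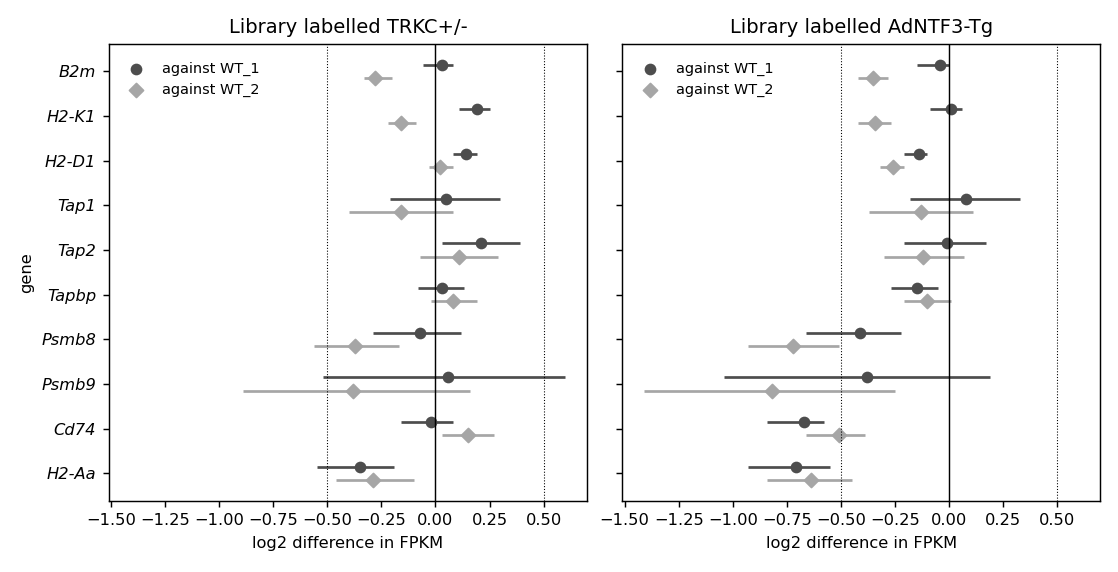
Log2 difference in FPKM of each gene in the library labelled TRKC+/- (left) and in AdNTF3-Tg (right) against WT_1 (circles) and WT_2 (diamonds), with bars for the exact 95% interval of counting error and dotted lines at the cutoff of 0.5. *Cd74* and *H2-Aa* pass the lower line against both WT libraries in AdNTF3-Tg, and no point passes a line in the library labelled TRKC+/-.

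Counted over the 10 genes, 2 were lower in AdNTF3-Tg than in WT_1 by the cutoff, *Cd74* and *H2-Aa*, where 8.24% of all 15275 genes were lower and 5.62% higher. Against WT_2, 4 genes were lower, *Psmb8*, *Psmb9*, *Cd74* and *H2-Aa*, where 7.10% of all genes were lower and 6.21% higher. In both comparisons 0 of 10 were higher. Against both WT libraries together, 2 of 10 were lower, beside 3.58% of all genes. This count was 1 with a pseudocount of 1 FPKM, where *Cd74* just missed the cutoff against WT_2, and 4 when the mean of the WT libraries served as control. AdNTF3-Tg was the lowest of the 4 libraries for 8 of the 10 genes, all but *H2-K1* and *Tap1*, and for 27.3% of all genes. The median difference of the 10 genes was -0.14 against WT_1 and -0.35 against WT_2. These genes were not independent of each other, and the comparisons share the AdNTF3-Tg library.

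For the library labelled TRKC+/-, 0 of 10 genes passed the cutoff against WT_1, where 4.63% of all genes were higher and 6.06% lower. Against WT_2, 0 of 10 passed it, where 6.74% of all genes were higher and 5.92% lower. The medians of the 10 genes were 0.04 and -0.16. Between the WT libraries 0 of 10 genes passed the cutoff, where 5.67% of all genes were higher in WT_2 and 7.71% lower, and the median of the 10 genes was 0.17. The 5 genes highest in WT_2 were *B2m*, *H2-K1*, *Tap1*, *Psmb8* and *Psmb9*, and their differences between the WT libraries were 0.21 to 0.44, against -0.07 for *H2-Aa*.

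Large differences were rarer among well-expressed genes. Of 6798 genes that averaged 10 FPKM or more, which include all of the 10 but *Psmb9*, 25 were lower in AdNTF3-Tg than in both WT libraries by the cutoff, or 0.368%. *Cd74* and *H2-Aa* were among these 25. When the 6798 genes were ordered by the smaller of their differences from the WT libraries, *H2-Aa* took rank 7 and *Cd74* rank 24. *Psmb8* took rank 58, and *H2-D1* followed at rank 877. The other 5 took ranks 1237 (*Tapbp*), 1926 (*B2m*), 2456 (*Tap2*), 2666 (*H2-K1*) and 4059 (*Tap1*).

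**Figure D4:**
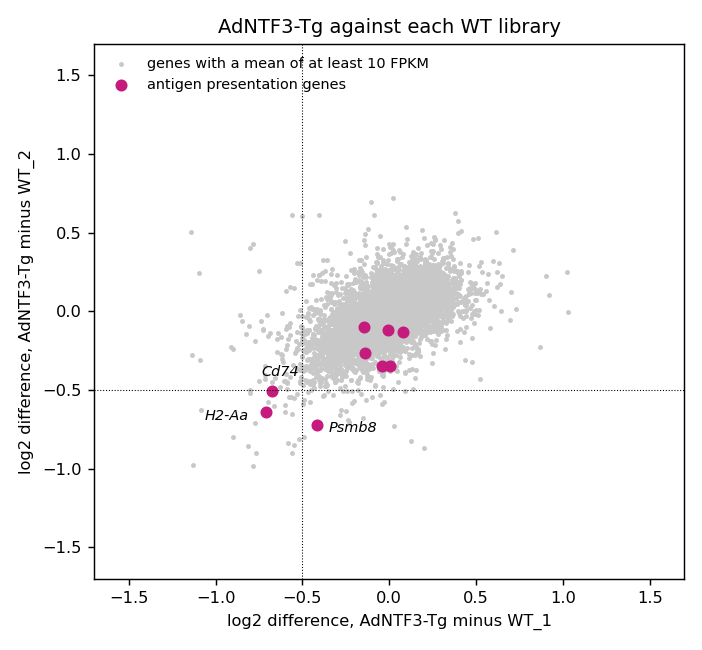
Log2 difference of AdNTF3-Tg from WT_1 (horizontal) and from WT_2 (vertical) for genes that averaged 10 FPKM or more, with 9 antigen presentation genes in colour and dotted lines at a difference of -0.5. *Cd74* and *H2-Aa* lie in the lower left corner and *Psmb8* below the horizontal line. The axes share the AdNTF3-Tg library, so the slope of the cloud is not a result, and 3 genes lie outside the plot.

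Of the other class II genes, *H2-Ab1*, *H2-Eb1* and *H2-DMa* were also lower in AdNTF3-Tg than in both WT libraries. *H2-Ab1*, the partner beta chain of *H2-Aa*, was at 42.8, 37.9, 40.9 and 27.0 FPKM in WT_1, the library labelled TRKC+/-, WT_2 and AdNTF3-Tg. It differed in AdNTF3-Tg by -0.66 (-0.92 to -0.47) and -0.60 (-0.83 to -0.38), and the proportion of *H2-Aa* to *H2-Ab1* was between 1.35 and 1.53 in the 4 libraries. *H2-Eb1*, another beta chain, was at 39.3, 34.8, 37.5 and 22.9 FPKM in the same order and differed in AdNTF3-Tg by -0.78 and -0.71, with intervals that reached up to -0.60 and -0.51. *H2-DMa*, a chain of the peptide exchange factor DM, differed by -0.71 (-1.12 to -0.36) and -0.66 (-1.06 to -0.29). *H2-DMb1*, the other chain of DM, was at 4.28, 3.36, 5.38 and 3.55 FPKM on 37 to 58 reads, lowest in the library labelled TRKC+/-, and its differences in AdNTF3-Tg were -0.26 (-0.96 to 0.35) and -0.59 (-1.23 to 0.01), both within counting error. Of the 8 further class II genes, 7 were listed in all libraries, and in AdNTF3-Tg 4 were lower and 2 higher by the cutoff against WT_1, where 8.24% of all genes were lower and 5.62% higher, and 5 were lower and 1 higher against WT_2, where 7.10% were lower and 6.21% higher. The higher ones, *H2-Oa* against both and *H2-Ob* against WT_1, had 3 to 8 reads in these libraries and intervals that included 0. Of the lower ones, *H2-Ab1*, *H2-Eb1* and *H2-DMa* had intervals below 0. The others were *H2-DMb1*, against WT_2 only, and *H2-DMb2*, against both. *H2-DMb2* had 1 read in AdNTF3-Tg, 3.1 in WT_1 and 4 in WT_2, with intervals of -7.32 to 2.03 and -7.62 to 1.34. In the library labelled TRKC+/- 2 were higher against WT_1, beside 4.63% of all genes, and 1 was lower against WT_2, beside 5.92%. The higher ones, *H2-DMb2* and *H2-Ob*, had 3.1 to 7 reads in these libraries and intervals that included 0. The lower one was *H2-DMb1* at -0.66 (-1.29 to -0.04). Of 4 genes for cutting class II cargo, *Ctss*, *Ctsl*, *Lgmn* and *Ifi30*, 0 passed the cutoff in any comparison. With 4.63% to 8.24% of all genes past it in each direction, 0 of 4 is too few to set apart from that share.

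Of 12 further heavy chain genes, 9 were listed in all libraries. In AdNTF3-Tg 1 of these was lower by the cutoff against WT_1, where 8.24% of all genes were lower, and 3 were lower and 1 higher against WT_2, where 7.10% of all genes were lower and 6.21% higher. The one lower against WT_1 was *H2-T24* at -0.56 (-1.77 to 0.43), within counting error, on 13 reads in AdNTF3-Tg and 20.1 in WT_1. Those lower against WT_2 were *H2-Q6* at -1.11 (-1.75 to -0.51), *H2-Q7* at -0.82 (-1.26 to -0.45) and *H2-M3* at -0.51 (-0.92 to -0.11). Against WT_1, *H2-Q6*, *H2-Q7* and *H2-M3* were at -0.27 (-0.99 to 0.40), 0.13 (-0.39 to 0.57) and -0.21 (-0.66 to 0.19), all within counting error. The higher one was *H2-Q10*, on 17 reads in AdNTF3-Tg and 2 reads in WT_2, with an interval of 1.02 to 6.25. WT_2 was the library that stood apart for *H2-Q10*, with 12 reads in WT_1 and 14.5 in the library labelled TRKC+/-, and AdNTF3-Tg differed from WT_1 by 0.46 (-0.67 to 1.68). *H2-Q4*, the most abundant of them, was at 50.3, 48.9, 50.1 and 37.5 FPKM in WT_1, the library labelled TRKC+/-, WT_2 and AdNTF3-Tg, with differences of -0.42 (-0.60 to -0.28) and -0.42 (-0.58 to -0.26) in AdNTF3-Tg that fell short of the cutoff. In the library labelled TRKC+/- 1 was higher and 1 lower against WT_1, where 4.63% of all genes were higher and 6.06% lower, and 1 was higher against WT_2, where 6.74% were, counts too small to set apart from these shares. Several of these genes are near copies of each other, and how their reads were divided is uncertain. Of 6 genes for peptide loading and trimming, among which *Calr*, a chaperone of the empty heavy chain, was the most abundant, 0 passed the cutoff in any comparison. That is near the share of all genes that passed it, 4.63% to 8.24% in each direction.

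Among 15 regulators of these pathways, *Irf8*, a transcription factor of myeloid and dendritic cells, was lower in AdNTF3-Tg than in both WT libraries. It was at 2.24, 2.55, 2.29 and 1.07 FPKM in WT_1, the library labelled TRKC+/-, WT_2 and AdNTF3-Tg, on 54, 63, 56 and 26 reads, and was 2.09-fold higher in WT_1 and 2.14-fold higher in WT_2 than in AdNTF3-Tg, with log2 intervals for AdNTF3-Tg of -1.81 to -0.38 and -1.83 to -0.40. *Nlrc5*, the transactivator of class I genes, was at 2.16 FPKM in AdNTF3-Tg, below every other library, of which WT_1 was highest at 3.17 FPKM, with differences of -0.53 (-0.89 to -0.23) and -0.46 (-0.81 to -0.14) in AdNTF3-Tg, past the cutoff against WT_1 only. *Ciita*, the transactivator of class II genes, was at 0.55, 0.62, 0.85 and 0.52 FPKM on 23 to 38 reads, and its differences in AdNTF3-Tg were within counting error, although that against WT_2, at -0.62 (-1.53 to 0.07), was past the cutoff. Against each WT library 2 of 15 regulators were lower and 0 higher in AdNTF3-Tg, a count too small to set apart from the share of all genes that were lower (8.24% against WT_1 and 7.10% against WT_2). In the library labelled TRKC+/- 0 of 15 passed the cutoff. Beside it, 4.63% of all genes were higher and 6.06% lower against WT_1, and 6.74% and 5.92% against WT_2, so this count is also near the share. The most abundant regulator was *Ifngr2*, a chain of the interferon-gamma receptor. The genes for interferon-gamma and interferon-beta, *Ifng* and *Ifnb1*, were listed in no library, which at this depth does not show that they were not expressed.

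Of 22 interferon-stimulated genes, 21 were listed in all libraries. In AdNTF3-Tg 4 were lower by the cutoff against WT_1, where 8.24% of all genes were lower, and 10 against WT_2, where 7.10% were, and 0 were higher in either comparison. *Ifitm3*, a membrane protein that blocks viral entry and the most abundant of the list, differed by -0.30 (-0.47 to -0.22) and -0.10 (-0.23 to 0.03), short of the cutoff. *Isg15*, a ubiquitin-like protein, differed by -0.76 (-1.26 to -0.37) and -0.90 (-1.35 to -0.47), *Ifit3*, an antiviral protein, by -0.56 (-0.83 to -0.33) and -0.90 (-1.15 to -0.67), and *Irf7*, a transcription factor, by -0.53 (-1.04 to -0.09) and -0.80 (-1.28 to -0.36). In the library labelled TRKC+/- 3 were higher against WT_1, beside 4.63% of all genes, and 1 was lower against WT_2, beside 5.92%. Between the WT libraries 5 were higher in WT_2, beside 5.67%. The median difference of the list in AdNTF3-Tg was -0.11 against WT_1 and -0.42 against WT_2. The median was thus further below 0 against WT_2, as for the 10 genes, although *Ifitm3* went the other way.

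Macrophages and dendritic cells, which carry most class II transcripts in tissue, were also represented in the ganglia, and the levels of their markers differed between libraries. In bulk RNA fewer cells of a type and less RNA per cell cannot be told apart. The summed level of 15 markers was 323 FPKM in WT_1, 264 FPKM in the library labelled TRKC+/-, 291 FPKM in WT_2 and 229 FPKM in AdNTF3-Tg, and 11 of the 15 were lowest in AdNTF3-Tg, beside 27.3% of all genes. By the cutoff 6 of 15 were lower in AdNTF3-Tg than in WT_1, beside 8.24% of all genes, and 4 were lower than in WT_2, beside 7.10%, and 0 were higher. In the library labelled TRKC+/- 3 were lower and 0 higher against WT_1, beside 6.06% and 4.63% of all genes, and 0 were lower and 1 higher against WT_2, beside 5.92% and 6.74%. Between the WT libraries 2 were lower and 1 higher in WT_2, beside 7.71% and 5.67%. *Lyz2*, a lysozyme of myeloid cells, was at 125, 87.5, 122 and 83.7 FPKM in WT_1, the library labelled TRKC+/-, WT_2 and AdNTF3-Tg, and so was low in both mutant libraries, whereas *Cd74* was low in AdNTF3-Tg only. *C1qa*, a complement gene of tissue macrophages, was at 52.4, 44.9, 42.1 and 34.1 FPKM in the same order. *Csf1r*, the macrophage growth factor receptor, was at 13.0, 11.8, 10.7 and 11.9 FPKM, and differed in AdNTF3-Tg by -0.12 (-0.33 to 0.07) and 0.16 (-0.05 to 0.37). *Cd74* was thus 8.66, 9.33 and 9.37 times the level of *Csf1r* in WT_1, the library labelled TRKC+/- and WT_2, and 5.91 times (5.22 to 6.68) in AdNTF3-Tg, below the interval of each other library. Against *C1qa* the same proportion was 2.14, 2.46, 2.37 and 2.07, with AdNTF3-Tg overlapping the WT libraries. Against *Lyz2* it was 0.898, 1.26, 0.818 and 0.841, with AdNTF3-Tg between the WT libraries. *Csf1r* was one of few markers not below WT_2 in AdNTF3-Tg. Of the dendritic cell markers, *Flt3* differed in AdNTF3-Tg by -0.52 (-1.23 to 0.08) and -0.45 (-1.15 to 0.18), *Zbtb46* by -0.06 (-0.40 to 0.54) and -0.11 (-0.47 to 0.45), and *Xcr1*, on 3 to 17 reads, by -1.69 (-4.94 to -0.74) and -0.91 (-3.96 to 0.65). The proportion of *Cd74* thus set AdNTF3-Tg apart from both WT libraries for *Csf1r* but not for *C1qa* or *Lyz2*, markers chosen after their values were seen. Of the whole list, 15 of 15 markers lay below 0 in AdNTF3-Tg against WT_1. Against WT_2, 12 lay below 0, down to -1.28, and 2 above. The part of these cells in the class II differences was not tested.

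**Figure D5:**
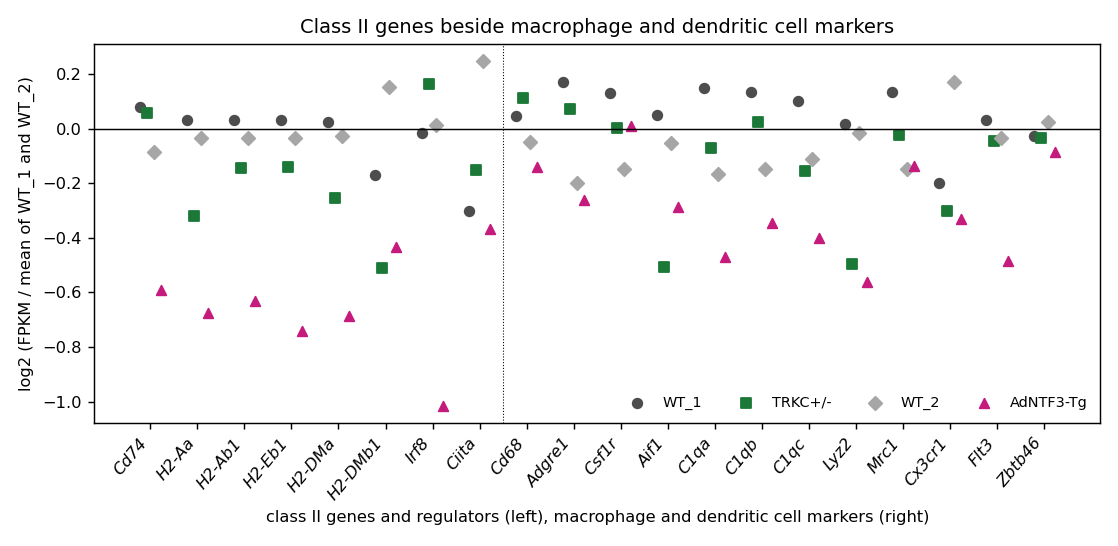
Log2 of FPKM relative to the mean of WT_1 and WT_2 for class II genes and the regulators *Irf8* and *Ciita* (left of the dotted line) and for macrophage and dendritic cell markers (right), with 1 point for each library and no error bars. AdNTF3-Tg lies clearly below the other libraries for *Cd74*, *H2-Aa*, *H2-Ab1*, *H2-Eb1*, *H2-DMa* and *Irf8*, whereas its points for the plotted markers vary, with *Csf1r* level with WT and *Lyz2* low. The listed markers *Fcgr1*, *Itgax* and *Xcr1* are not plotted. Over the whole marker list the lowest difference in AdNTF3-Tg was -1.69 against WT_1 and -1.28 against WT_2.

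Markers of other leukocytes were scarce. The 9 markers of T and NK cells summed to 9 to 15 reads a library, with *Cd3d*, *Trac* and *Ncr1* listed in none, and the 4 markers of B cells summed to 6 to 11 reads, with *Ms4a1* listed in none. The summed level of *Ptprc*, *Laptm5* and *Coro1a*, which mark leukocytes in general, was 79.8 FPKM in WT_1, 85.6 FPKM in the library labelled TRKC+/-, 80.0 FPKM in WT_2 and 70.0 FPKM in AdNTF3-Tg.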

How the data were processed

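RNA from T1–T4 SG was pooled from 6 mice per group and sequenced as 4 libraries. Per the methods of the study, mRNA was selected with oligo(dT), and single-end reads were cleaned by SOAPnuke and aligned by HISAT2. The methods of the study name mm9, whereas the submitters' processing notes name RSEM and mm10. The build and the program behind the counts are therefore uncertain, and no value here depends on coordinates of the reads. The authors deposited, for each Entrez gene, an expected count (estimated reads, not normalized, with 92.6% to 93.7% whole), an FPKM value and a gene length. Genes without reads were not listed.

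Libraries were grouped by their titles. The 10 genes, the gene lists and the comparisons were chosen with earlier results of these data known. Log2 ratios of FPKM used a pseudocount of 0.1 and genes listed in all 4 libraries, with no further filter. Intervals were exact Clopper-Pearson 95% intervals from expected counts rounded to whole numbers (scipy 1.17.1), and were tested on simulated data. Neither they nor the floor of 3 reads cover more than counting error. From each further pathway list described the most abundant gene was named, with those past the cutoff against both WT libraries and intervals without 0, at most 4 a list. Genes beyond that, among them *Nlrc5*, *Ciita*, *H2-Q6*, *H2-Q7*, *H2-M3*, *H2-Q10*, *H2-T24*, *H2-DMb1*, *H2-DMb2*, *H2-Oa*, *H2-Ob*, *Lyz2*, *C1qa*, *Csf1r*, *Flt3*, *Zbtb46* and *Xcr1*, were chosen after their values were seen. Symbols and start regions came from RefSeq (GRCm38.p6), with a symbol for 17619 of 17667 genes, and positions from GENCODE on NCBIM37. Alternatives were other pseudocounts, a filter on low values, missing genes taken as 0, centring on the median, edgeR 4.0.16 TMM scaling of the counts, a cutoff of 1 and a control that averaged WT_1 and WT_2.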

Additional observations from a re-analysis of the deposited data

How the results depend on the processing

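No paired analysis was possible because each group was 1 pooled library, and for the same reason no replicate could be left out. With a cutoff of 1 on the log2 scale, 0 of the 10 genes passed in AdNTF3-Tg against WT_1 and 0 against WT_2. With the mean of WT_1 and WT_2 as control, 4 genes were lower in AdNTF3-Tg. With a pseudocount of 1 FPKM, 1 gene was lower than in both WT libraries, since *Cd74* went from -0.505 to -0.500 against WT_2 and rounding hides that it then missed the cutoff. That was the only one of the 300 differences of single genes under the scalings, filters and pseudocounts that changed its side of the cutoff, and none changed sign. The 76 other counts and medians moved by less than 1.5 times or less than the counting interval. No alternative moved the median over all genes by more than 0.01 on the log2 scale. Depth limits *Psmb9* and the low class II and regulator genes most, where counting intervals were wide.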
